A study of Rattus norvegicus with 10 samples.

Results

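Glucose transporters, a regulatory protein of hepatic glucose use and the enzymes that carry glucose-derived carbon and NADH between cytosol and mitochondrion were examined in rat pancreatic islets, the endocrine part of the pancreas. The set of 9 genes was chosen by symbol: Slc2a1, Slc2a2, Gckr, G6pc2, Pcx, Gpd2, Glud1, Mdh1 and Got1. Of these, 8 were found among the 14217 genes named on the array, through 11 of 20826 probesets with 1 gene symbol. Pcx is listed under its current symbol Pc and was matched by gene ID. G6pc2 had no probeset with 1 gene symbol, so only its promoter was examined. Islets were taken from males of the Wistar strain, 7 weeks old, after 10 days on standard chow or on a cafeteria diet; fat gave 8% and 66% of calories, respectively. Each diet had 5 Affymetrix Rat Genome 230 2.0 arrays of independent samples, from unmodified animals, and islets were hand-picked after collagenase digestion and a density gradient. The series title concerns Sfrp5, a secreted Wnt inhibitor, in obesity. Arrays were grouped by title, source name and description; the diet characteristic of every sample names the opposite diet, and if it were right every sign below would turn while sizes and p-values stayed.

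As background, glucose enters the rodent beta cell through GLUT2, the product of Slc2a2, while GLUT1, the product of Slc2a1, is the basal transporter of most tissues. The product of Gckr is a regulatory protein best known for restraining glucose use in liver. Pyruvate from glycolysis is carboxylated to oxaloacetate by pyruvate carboxylase (Pc), which is abundant in islets, and beta cells rely on the glycerol phosphate shuttle (Gpd2) and the malate-aspartate shuttle (Mdh1 and Got1 in the cytosol) to move NADH electrons into mitochondria. Glutamate dehydrogenase (Glud1) lets amino acids feed the same mitochondrial signal.

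None of the member genes passed the test for a diet difference. Mdh1 had the largest positive difference in the set, 1.23-fold higher in the cafeteria group by 1 probeset and 1.22-fold by the other. Got1 was at 1.11-fold, Slc2a2 at 1.06-fold and Slc2a1 at 0.916-fold. With limma, 0 of the 10 member probesets tested had an adjusted p under 0.05, with adjusted p from 0.444 to 0.983, and the background was 0 of 18625 probesets, 0%, with a lowest adjusted p of 0.172. At an unadjusted p under 0.05 the count was 1 of 10, for Mdh1, against 1941 of 18625 probesets, 10.4%, so the members' share lay near the background. The members divided evenly, with 5 probesets higher and 5 lower in the cafeteria group, a median log2 difference of 0.001 against 0.006 over all probesets tested. The median size of the difference, sign ignored, was 0.129 for the members and 0.115 for all. The diets overlapped in every one of the 11 probesets, while they did not overlap in 454 of the 18625 tested, 2.44%.

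The promoters of 4 members are shown because they code for the transporters that divide glucose entry and for the cytosolic enzymes of the malate-aspartate shuttle, the second pair having the largest positive differences here. Each is the 250 bases before a transcription start in the RefSeq promoter table, build GRCr8, read 5′ to 3′ on the gene's strand. The first start listed for each gene was used. For Slc2a1 and Mdh1 it is where the RefSeq gene begins. Those of Slc2a2 and Got1 lie inside the gene, which begins at 113537884 and, on the minus strand, at 252337622. Other starts were not examined. Capitals mark matches on either strand to CCAAT and to GGGCGG, the core of the GC box; windows were also searched for the E-box CACGTG, the TATA box TATAAA and the HNF1-type sequence GTTAAT, of which these 4 hold none. They lie at chr5:138002272-138002521 on the plus strand (Slc2a1), chr2:113540120-113540369 on the plus strand (Slc2a2), chr14:99847228-99847477 on the minus strand (Mdh1) and chr1:252329872-252330121 on the minus strand (Got1).
Slc2a1: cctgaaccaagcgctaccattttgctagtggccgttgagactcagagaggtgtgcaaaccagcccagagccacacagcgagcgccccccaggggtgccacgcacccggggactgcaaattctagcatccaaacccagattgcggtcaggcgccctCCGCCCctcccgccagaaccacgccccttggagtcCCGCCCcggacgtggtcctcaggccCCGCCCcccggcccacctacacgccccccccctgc
Slc2a2: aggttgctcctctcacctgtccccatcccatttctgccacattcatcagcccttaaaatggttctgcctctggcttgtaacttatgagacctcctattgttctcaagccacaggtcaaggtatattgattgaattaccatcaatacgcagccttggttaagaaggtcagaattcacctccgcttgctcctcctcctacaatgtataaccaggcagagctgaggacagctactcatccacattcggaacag
Mdh1: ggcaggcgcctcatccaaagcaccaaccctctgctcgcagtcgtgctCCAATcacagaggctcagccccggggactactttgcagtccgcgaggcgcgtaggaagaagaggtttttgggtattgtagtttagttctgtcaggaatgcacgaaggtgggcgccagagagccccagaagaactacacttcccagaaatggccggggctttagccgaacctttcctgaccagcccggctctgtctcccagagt
Got1: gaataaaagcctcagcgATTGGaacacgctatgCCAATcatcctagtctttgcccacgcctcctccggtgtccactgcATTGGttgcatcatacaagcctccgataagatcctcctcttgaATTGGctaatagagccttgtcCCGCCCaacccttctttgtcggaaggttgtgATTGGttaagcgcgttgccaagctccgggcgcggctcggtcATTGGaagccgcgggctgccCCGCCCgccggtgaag

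The transporters' windows differ in composition: that of Slc2a1 is 68.4% G and C with 3 GC boxes, and that of Slc2a2 is 47.2% with none of the 5 motifs. Over 33465 promoters of the same length the median was 51.2% G and C, 30.5% held GGGCGG at least once and 7.41% at least 3 times. Mdh1 has 1 CCAAT match, as do 34.0% of promoters at least once. Got1 has 6 CCAAT matches and 2 GC boxes, and 11 of the 33465 promoters, 0.0329%, hold 6 or more CCAAT; this count was picked out after it was seen. The remaining motifs were found in 5.59% (E-box), 12.9% (TATA box) and 6.45% (HNF1-type sequence) of promoters. Gpd2 at 74.4% and Glud1 at 78.8% G and C hold 2 GC boxes each, and the Gpd2 window also lies inside its gene. G6pc2 at 42.0% holds 1 CCAAT match, and Gckr at 54.4% holds none of the motifs. Of the 9 genes, 8, all but Pc, matched the promoter table. A match is a description of letters and not evidence of binding, and no factor was measured here.

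Slc2a2 was among the brightest probesets on the arrays. Values are MAS5 signals, Affymetrix's linear summary of brightness, and the mean log2 value of Slc2a2 stood at percentile 99.9 of the non-control probesets. In standard replicates 1 to 5 its signal was 24677, 23764, 25478, 23442 and 23551, and in cafeteria replicates 1 to 5 it was 24358, 24169.7, 27111, 24761 and 27810.0. Cafeteria replicates 3 and 5 lay above all standard arrays, and the other 3 lay within the standard range. The diets differed by 0.083 on the log2 scale (SE 0.072), with a 95% interval from −0.08 to 0.24 (limma adjusted p = 0.691), and it was 0.053 without cafeteria replicate 5 and turned to −0.051 with quantile normalization. The interval covers changes from −5.16% to 18.3%, and the brightest probeset of each array read 36432.6 to 49015.8, a range in which saturation can narrow differences.

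Slc2a1 gave a signal of 369, 387, 401, 335 and 402 in standard replicates 1 to 5 and 371, 353, 368, 308 and 329 in cafeteria replicates 1 to 5. All 5 cafeteria arrays lay below the standard mean of 378.7 ± 27.7 (SD, n = 5), and replicates 4 and 5 lay below every standard array. The cafeteria mean was 345.8 ± 26.8 (SD, n = 5), a log2 difference of −0.13 (SE 0.083, limma adjusted p = 0.59) that ran from −0.17 to −0.09 as each array was left out. Slc2a1 is also expressed by endothelial cells: the endothelial marker index, the mean log2 value of 7 markers, differed by −0.039 (exact permutation p = 0.722). Its part in the Slc2a1 values was not tested.

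Gckr was dim, at percentile 16.7, below the 40th percentile that a probeset had to exceed to be tested. Its signal was 54.4, 17.3, 22.4, 74.2 and 18.0 in the standard arrays and 28.3, 44.6, 17.5, 27.2 and 17.1 in the cafeteria arrays. The table holds no detection calls, so it is not known which of these values lie above background. The spread within a diet was large, with coefficients of variation of 69.1% and 41.4%, and the value for Gckr is given with no p.

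**Figure D1:**
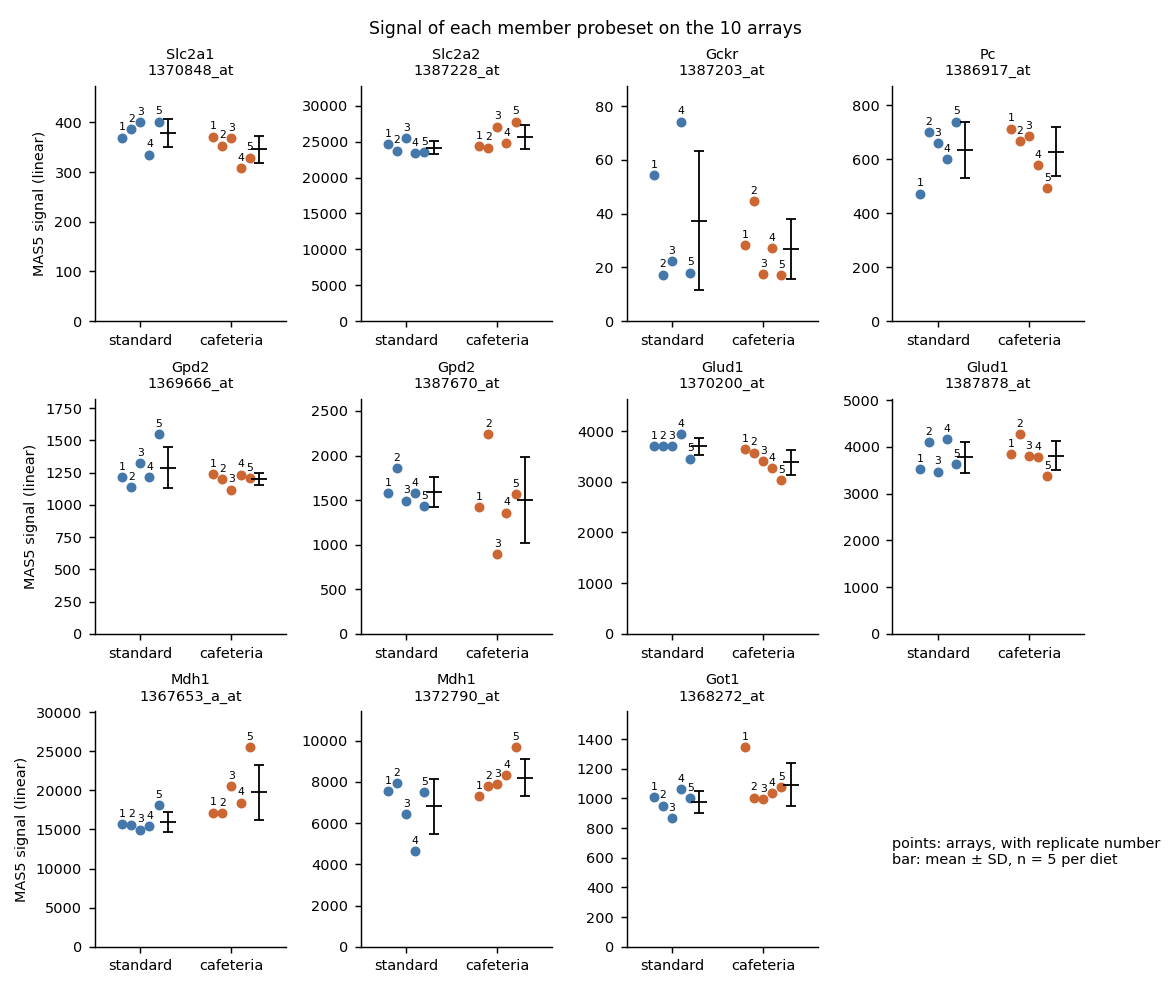
MAS5 signal (linear axis from 0) of the 11 probesets of the 8 genes, with a point for each array, numbered by replicate, and a bar for the mean ± SD of 5 arrays per diet. The diets overlap in every panel; for Mdh1 1367653_a_at all cafeteria arrays lie above the standard mean and cafeteria replicate 5 reads 25499.

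Pyruvate carboxylase showed no difference beyond its spread. The signal of Pc was 472, 700.4, 660.2, 599 and 739 in the standard arrays and 713, 667, 685, 577 and 492 in the cafeteria arrays, so that the lowest array of each diet, standard replicate 1 and cafeteria replicate 5, lay apart from the rest in the same direction. Means were 634.1 ± 104.3 (SD, n = 5) and 626.9 ± 90.8 (SD, n = 5), with a log2 difference of −0.012 (SE 0.138, limma adjusted p = 0.983) whose interval ran from −0.32 to 0.29. Its sign turned when single arrays were left out, between −0.11 without standard replicate 1 and 0.07 without cafeteria replicate 5.

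Gpd2, the mitochondrial glycerol-3-phosphate dehydrogenase, was read by 2 probesets that varied differently from array to array. Probeset 1387670_at gave 1583, 1862, 1494, 1583 and 1434 in the standard arrays and 1424, 2236, 897, 1361 and 1572 in the cafeteria arrays, with cafeteria replicate 2 the highest and replicate 3 the lowest of all 10. Its SD was 163.9 in the standard and 483.8 in the cafeteria group (n = 5 each). Probeset 1369666_at gave 1216, 1139, 1326, 1216 and 1547 in the standard arrays and 1238, 1198, 1119, 1235 and 1207 in the cafeteria arrays, where the spread was the smaller one in the cafeteria group, at 48.2 against 158.8. Both were lower in the cafeteria group, by a log2 difference of −0.14 (SE 0.195) and −0.095 (SE 0.09), with limma adjusted p of 0.813 and 0.712. The first turned to 0.028 without cafeteria replicate 3, was −0.30 without cafeteria replicate 2 and −0.082 without standard replicate 2, and the second was −0.028 without standard replicate 5. With the diet means removed, the 2 probesets did not follow each other over the 10 arrays (Pearson's r −0.05, permutation p = 0.871; Spearman's rho −0.39, permutation p = 0.262; r 0.38 without the 2 arrays farthest from the median).

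The 2 probesets of Glud1 followed each other more closely but differed in the sign of the diet difference. Probeset 1370200_at gave 3707, 3706.5, 3706, 3934 and 3459 in the standard arrays and 3638, 3575, 3401, 3273 and 3026 in the cafeteria arrays. Of the cafeteria arrays, replicates 3, 4 and 5 lay below every standard array, and the other pair lay within the standard range. The log2 difference was −0.13 (SE 0.076, limma adjusted p = 0.543, interval −0.3 to 0.04), and it stayed negative under all settings tried. Probeset 1387878_at gave 3519.7, 4101, 3474, 4171 and 3628.5 in the standard arrays and 3839.5, 4267, 3803, 3787.5 and 3379 in the cafeteria arrays, a log2 difference of 0.014 (SE 0.089, limma adjusted p = 0.964). This difference turned to −0.15 with the GAPDH ratio as a covariate and to −0.048 with the immune index. With median centring of the arrays it was −0.023, where the median of all probesets tested was −0.032, against 0.006 in the main fit. In both Glud1 probesets, cafeteria replicate 5 was the lowest of the 10 arrays. With diet means removed they correlated over 10 arrays with Pearson's r 0.7 (permutation p = 0.025, adjusted p = 0.075 over the 3 genes with 2 probesets) and Spearman's rho 0.73 (permutation p = 0.0197), and r was 0.65 without the 2 farthest arrays.

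Mdh1, the cytosolic malate dehydrogenase that reduces oxaloacetate with NADH at the start of the malate-aspartate shuttle, read higher in all 5 cafeteria arrays than the standard mean by both probesets. The brighter probeset, 1367653_a_at, gave 15676, 15614, 14985, 15393.5 and 18093.5 in standard replicates 1 to 5 and 17149, 17128, 20538, 18426 and 25499 in cafeteria replicates 1 to 5. The diets overlapped through 1 array: standard replicate 5 exceeded cafeteria replicates 1 and 2, and the other 4 standard arrays lay below all cafeteria arrays. Means were 15952.4 ± 1227.2 (SD, n = 5) and 19748.0 ± 3502.3 (SD, n = 5), a log2 difference of 0.29 (SE 0.116, 95% interval 0.04 to 0.55). The unadjusted p was 0.0278 and limma's adjusted p was 0.444; 6.26% of all probesets tested had a p as low. With quantile normalization the difference was 0.19, and this probeset, at percentile 99.8, lies in the same bright range as Slc2a2, where saturation can narrow differences.

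The second Mdh1 probeset, 1372790_at, gave 7542, 7952, 6419, 4635 and 7495 in the standard arrays and 7316, 7788, 7904, 8324 and 9677 in the cafeteria arrays. Here standard replicate 4 stood low, cafeteria replicates 4 and 5 exceeded every standard array, and the remaining 3 cafeteria arrays lay inside the standard range. The log2 difference was 0.29 (SE 0.146, limma adjusted p = 0.507, interval −0.03 to 0.61). In both probesets cafeteria replicate 5 was the highest array, at 0.68 and 0.53 above the standard mean on the log2 scale. Without it the differences were 0.20 and 0.23 (limma adjusted p = 0.55 and 0.664), and without standard replicate 4 the second was 0.16. Across the 10 arrays with diet means removed the probesets correlated with Pearson's r 0.49 (permutation p = 0.153) and Spearman's rho 0.66 (permutation p = 0.0442), and r was 0.19 without the 2 farthest arrays.

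Got1, the cytosolic aspartate aminotransferase that returns the carbon of the shuttle, gave 1008, 951, 868, 1062 and 1002 in the standard arrays and 1344, 1005, 997, 1036 and 1074 in the cafeteria arrays. Cafeteria replicate 1 stood above the rest, replicate 5 was just above the highest standard array, and the other 3 were inside the standard range. Means were 978.1 ± 73.0 (SD, n = 5) and 1091.2 ± 144.8 (SD, n = 5), a log2 difference of 0.15 (SE 0.099, limma adjusted p = 0.591, interval −0.07 to 0.37). It fell to 0.073 without cafeteria replicate 1 and kept its sign under the settings tried.

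**Figure D2:**
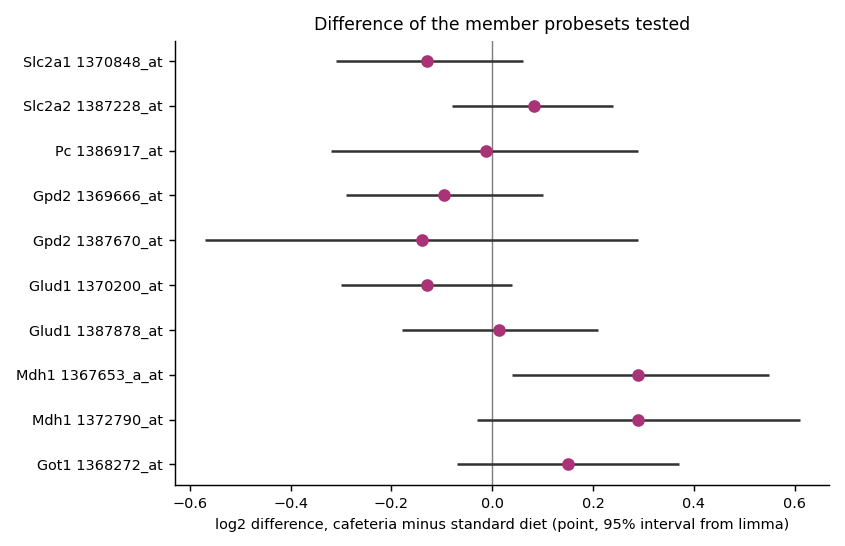
Log2 difference, cafeteria minus standard diet, of the 10 member probesets tested (point) with limma's 95% interval, not adjusted for the number of probesets (line). The interval of Mdh1 1367653_a_at, 0.04 to 0.55, is the one that leaves out 0; that of Gpd2 1387670_at, −0.57 to 0.29, is the widest.

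**Figure D3:**
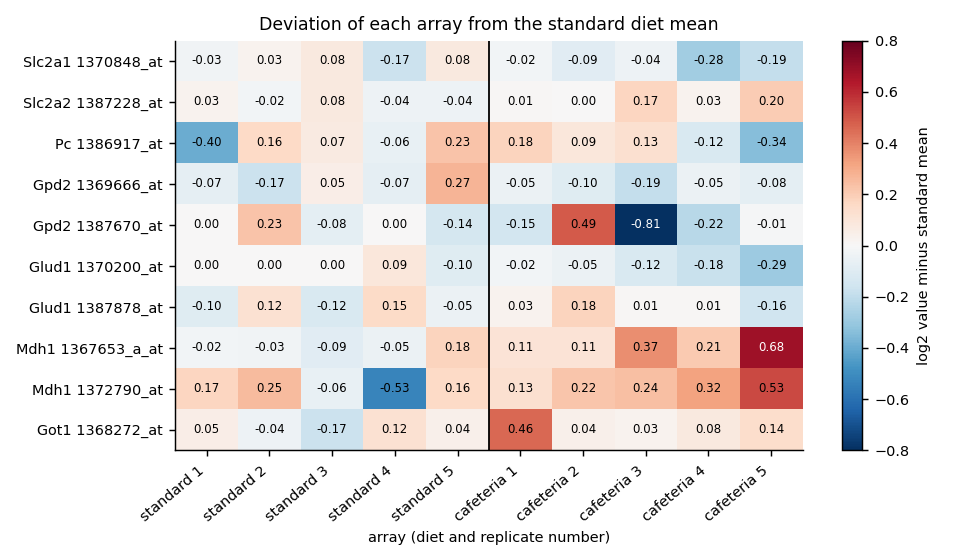
Deviation of each array, in columns by diet and replicate, from the mean of the 5 standard arrays on the log2 scale, for the 10 probesets tested, in rows. Cafeteria replicate 5 holds the highest values of both Mdh1 probesets (0.68 and 0.53) and the lowest of both Glud1 probesets (−0.29 and −0.16).

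Cafeteria replicate 5 was an extreme array for several members at once, though it was not flagged in any set by the Dixon criterion given below. It was the highest of the 10 arrays for Slc2a2 and both Mdh1 probesets and the lowest for both Glud1 probesets. On the same array the beta cell index, the mean log2 value of Ins1, Ins2, Iapp, Pdx1, Mafa and Nkx6-1, was 13.63, against 13.22 to 13.35 in the remaining cafeteria arrays; the standard arrays lay between 13.26 and 13.40. The beta cell index was not the only one to be highest of its diet there. The endothelial index of this array was 10.66, where its diet otherwise spanned 10.14 to 10.39. Standard replicate 5 read 10.68, so 10.66 lay inside the standard range. A higher share of beta cells and more RNA per cell cannot be told apart in whole islets. The part of either index in the members' values was not tested. The marker indices of the 8 cell types examined differed between diets by −0.78 (immune) to 0.15 (red blood cell), with exact permutation p of 0.151 or more (adjusted p = 0.738 for each). All 10 immune markers tested had a negative log2 difference in the fit, and none passed. By mean signal, 9 were lower in the cafeteria group and 1, Tyrobp, was at 160.0 and 160.8. Summed signals of the immune list were 4125 to 17745 in the standard and 4020.2 to 19189 in the cafeteria arrays. No marker of any list was at 0. A measure of RNA integrity, the GAPDH control signal at the 3 prime end over that at the 5 prime end, was 1.16 in the standard and 1.01 in the cafeteria group (exact permutation p = 0.0238, adjusted p = 0.0476 over 2 ratios), with a p of 0.0556 to 0.0635 without standard replicate 1, 3, 4 or 5. The same ratio for beta-actin was 2.81 and 2.65 (exact permutation p = 0.405). Cafeteria replicate 5 had the highest GAPDH ratio of its diet, 0.157 on the log2 scale. Replicates 1 to 4 read 0.019, −0.034, −0.047 and −0.053. The value 0.157 lay inside the standard range of 0.004 to 0.338. For beta-actin, cafeteria replicate 3 was higher, at 1.588 against 1.54 in replicate 5. The part of RNA integrity in the member values of cafeteria replicate 5 was not tested. When the fit held the GAPDH ratio, the Mdh1 difference was 0.41 and 0.27 by the 2 probesets, that of Slc2a2 0.15, and that of Pc −0.28.

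Pairs of members varied together only loosely. Over the 10 arrays with diet means removed, and with the brightest probeset of each of the 8 genes, the 28 pairs gave Pearson's r from −0.73 to 0.65 with a median of −0.11. At an unadjusted permutation p under 0.05 there were 3 pairs, and 0 after adjustment over the 28 (lowest 0.422). Slc2a2 ran opposite to Glud1 (Pearson's r −0.73, permutation p = 0.0203, adjusted p = 0.422; Spearman's rho −0.71, permutation p = 0.0265, adjusted p = 0.247), and r was −0.71 without the 2 arrays farthest from the median of Slc2a2. Slc2a2 ran with Mdh1 (r 0.65, permutation p = 0.0331, adjusted p = 0.422; rho 0.73, permutation p = 0.0207, adjusted p = 0.247), but r was 0.23 without the 2 farthest arrays, so this relation rested on them. Slc2a1 ran with Pc (r 0.64, permutation p = 0.0452, adjusted p = 0.422; rho 0.75, permutation p = 0.0176, adjusted p = 0.247), with r 0.89 without the 2 farthest arrays. With 5 arrays a diet, no correlation was computed within one.

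**Figure D4:**
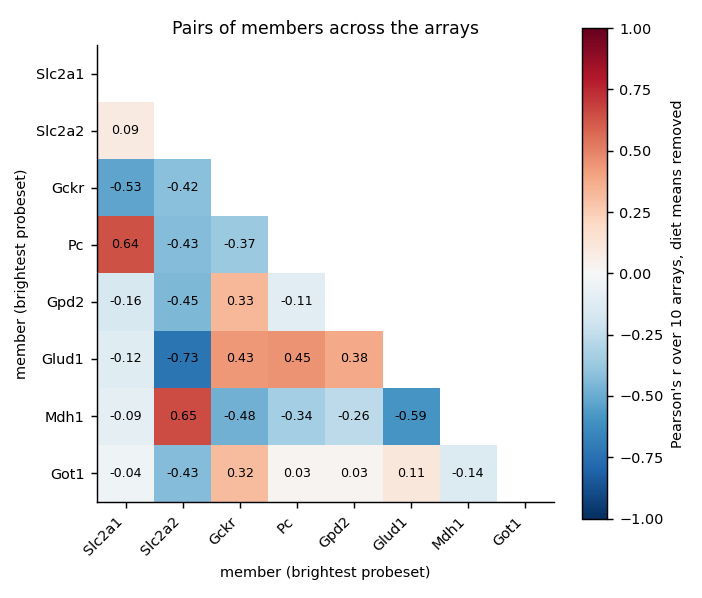
Pearson's r of each pair of the 8 members (rows and columns, brightest probeset) over 10 arrays after the mean of each diet was removed. The values run from −0.73 for Slc2a2 and Glud1 to 0.65 for Slc2a2 and Mdh1, and none passed adjustment over the 28 pairs.

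The genes whose array-to-array pattern was most like that of a member were found among 10227 other named genes by Pearson's r with diet means removed over 10 arrays. They were chosen as the highest of that many, so r is a description and has no p. For Slc2a2 they were the biliverdin reductase gene Blvra (r 0.98) and Gpalpp1 (r 0.92), and for Slc2a1 the quinone reductase gene Nqo1 (r 0.96) and Cytl1 (r 0.93). For Mdh1 they were the phosphodiesterase gene Pde10a (r 0.97) and Acad8 (r 0.95), an acyl-CoA dehydrogenase of valine breakdown, and for Got1 Arhgef25 (r 0.94) and Fbxo44 (r 0.91). For Glud1 they were the RNA helicase gene Ddx17 and Jhy (r 0.95 each), for Gpd2 Smim20 (r 0.96) and Hikeshi (r 0.94), for Pc Gapvd1 and Tmem256 (r 0.94 each), and for the dim Gckr Zfp384 (r 0.98) and Ube2e3 (r 0.94). Without the 2 arrays farthest from the member's median these 16 values lay between 0.62 (Gpd2 and Hikeshi) and 0.96 (Slc2a2 and Blvra). With the diet means kept they lay between 0.59 (Glud1 and Ddx17) and 0.97 (Mdh1 and Pde10a), and Slc2a2 and Blvra stood at 0.75.

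Other genes of the same metabolism were read from 5 lists, by the brightest probeset of each gene. Of 60 genes tested, 43 were higher and 17 lower in the cafeteria group, against 5016 and 5285 of 10301 genes in all, and 0 passed limma's adjusted threshold. The split was 37 to 23 with median centring, where 39.7% of all genes were higher against 48.7% in the main fit. It was 42 to 18 with quantile normalization. With the GAPDH ratio as a covariate or without standard replicate 3 it was also 37 to 23, while 49.0% and 48.6% of all genes were higher. At an unadjusted p under 0.05 there were 6 of 60, 10.0%, beside 10.3% of all genes, so this share lay at the background. In 4 of the 60 the diets did not overlap (Adpgk, Mpc1, Me3 and Suclg2), beside 2.78% of all genes.

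The partners of the members in the NADH shuttles showed no difference past the test. Of 6 tested, 1 was higher and 5 lower, with a median log2 difference of −0.059 against −0.005 for all genes, and 0 passed. The mitochondrial malate dehydrogenase gene Mdh2 was the higher one, at 0.13 (SE 0.104, limma adjusted p = 0.653), with signals of 2425.0 ± 232.8 (SD, n = 5) and 2667.6 ± 323.2 (SD, n = 5). The carrier Slc25a11, which exchanges malate for oxoglutarate, was at −0.10 (SE 0.069), the aspartate-glutamate carriers Slc25a12 and Slc25a13 at −0.075 (SE 0.068) and −0.098 (SE 0.126), the mitochondrial aminotransferase Got2 at −0.042 and Gpd1, the cytosolic partner of Gpd2, at −0.018; limma's adjusted p was 0.612 or more for all 6. Got2 and Gpd1 complete the list and fall outside the naming rule. Without standard replicate 4 the split was 3 to 3 and the median −0.022, and the median was −0.027 when the fit held the GAPDH ratio.

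In glucose entry and phosphorylation, 7 of 9 genes tested were higher and 2 lower (median 0.075), and 0 passed. The split was 5 to 4 with the GAPDH ratio or the immune index as a covariate or without standard replicate 3. The median of the list was 0.038 without cafeteria replicate 5, and 0.037 with median centring, beside −0.042 for all genes. Adpgk, which phosphorylates glucose with ADP, was at 0.35 (SE 0.098, limma adjusted p = 0.398), with 309.2 to 435.5 in the standard and 439.1 to 517.7 in the cafeteria arrays; its 2 probesets differed in sign. The fructose transporter Slc2a5 was at 0.23 (SE 0.132), the glucose-6-phosphatase G6pc3 at 0.079 (SE 0.089) and the inositol transporter Slc2a13 at −0.22 (SE 0.139).

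In pyruvate supply and use, 13 of 16 were higher and 3 lower (median 0.074), and 0 passed. The split was 11 to 5 with median centring (median 0.037, beside −0.042 for all genes), and the median was 0.047 without cafeteria replicate 5. An 11 to 5 split was also found with the GAPDH ratio as a covariate (median 0.087) and without standard replicate 4 (median 0.079). The pyruvate kinase gene Pklr was at 0.20 (SE 0.087, limma adjusted p = 0.468) and the mitochondrial PEP carboxykinase Pck2 at 0.23 (SE 0.117). The pyruvate carrier subunit Mpc1 was at −0.14 (SE 0.071, limma adjusted p = 0.506), with 2774 to 3003 in the standard and 2307 to 2689 in the cafeteria arrays, which did not overlap. The lactate dehydrogenase gene Ldha, whose expression beta cells keep low, was at −0.32 (SE 0.19), with signals of 430.3 ± 121.5 (SD, n = 5) and 339.5 ± 76.9 (SD, n = 5).

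In citrate, malate and isocitrate cycling, 18 of 22 were higher and 4 lower (median 0.094), and 0 passed. The split was 15 to 7 with median centring (median 0.056, beside −0.042 for all genes). It was the same with the GAPDH ratio as a covariate or without standard replicate 3. Me3, a mitochondrial malic enzyme, was at 0.44 (SE 0.119, limma adjusted p = 0.398), with 240.5 to 315.2 in the standard and 319.7 to 463.2 in the cafeteria arrays. Suclg2, the GTP-forming subunit of succinyl-CoA ligase, was at −0.23 (SE 0.071, limma adjusted p = 0.407), with 2954 to 3335 in the standard and 2518 to 2828 in the cafeteria arrays. Dlst, of the oxoglutarate dehydrogenase complex, was at 0.27 (SE 0.11) and the succinate dehydrogenase subunit Sdhc at 0.17 (SE 0.076).

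In glutamate handling, 4 of 7 were higher and 3 lower (median 0.025), and 0 passed. The median had no stable sign as single arrays were left out, from −0.044 to 0.1. It was negative without cafeteria replicate 2 or 4 or standard replicate 3 or 4, and highest without cafeteria replicate 1. With quantile normalization it was −0.021, beside −0.011 for all genes. With median centring it was −0.012, but the median of all genes was −0.042 there, against −0.005 in the main fit. Hadh, a mitochondrial fatty acid oxidation enzyme that also inhibits glutamate dehydrogenase, was at 0.085 (SE 0.075), with signals of 18863.0 ± 929.8 (SD, n = 5) and 20017.5 ± 1342.7 (SD, n = 5). Glul was read by 3 probesets, of which the other 2 were higher in the cafeteria group. Gls2 was at 0.18 (SE 0.2), Gpt at −0.16 (SE 0.15) and Glul at −0.14 (SE 0.158), with limma adjusted p of 0.694 or more for these 4.

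**Figure D5:**
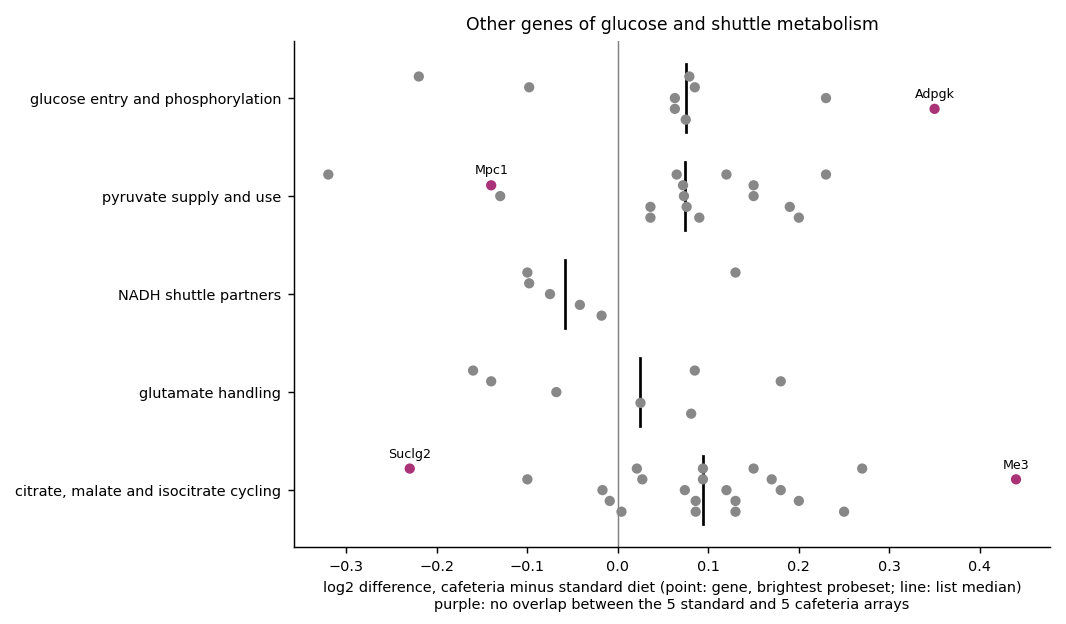
Log2 difference, cafeteria minus standard diet, of the 60 other genes tested in 5 lists (a point for each gene, a black line for the list median, purple where the 5 arrays of each diet do not overlap). Medians run from −0.059 for the shuttle partners to 0.094 for citrate, malate and isocitrate cycling, and 0 genes passed limma's adjusted threshold. The median of glutamate handling turns negative with quantile normalization or without any of 4 single arrays. It is also negative with median centring, where the median of all genes is −0.042.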

How the data were processed

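Total RNA from islets was hybridised to 1-colour Affymetrix Rat Genome 230 2.0 arrays. The authors deposited intensity on a linear scale, made with MAS5 (version not given in the sources used here) per the submitters' processing notes. MAS5 summarises perfect match and mismatch probes into a value for each probeset. After trimming 2% at each end, the mean of every array lay between 500.1 and 500.2, so the deposited table was already scaled, and a change in total RNA per cell cannot be seen in it. Median signals ran from 150.8 to 173.2. The number of arrays limits the precision.

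Signals were taken as log2(value + 14.15), the 10th percentile of all values, so fold changes of dim genes are understated. Probesets above the 40th percentile of mean log2 value were tested, 18625 of 31042 without the 57 controls. Each was fitted with limma 3.58.1 in R 4.3.3 (lmFit and eBayes, Benjamini-Hochberg adjustment, threshold 0.05), and the script was checked on simulated data. All p-values are two-sided. Correlations used 100000 permutations, and marker indices and control ratios the exact permutation test over 252 divisions (smallest p 0.00794). Genes with several probesets are named from the brightest. Symbols came from the platform annotation, and genome positions from RefSeq, GRCr8; the build of the array annotation is not given in the sources used here. The labels state no pairing of replicate numbers across diets.

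The naming rule was all members, up to 4 genes of lowest p per list, and the 2 genes most correlated with each member. The members and lists were chosen with earlier results of these data known. Alternatives were other pseudocounts and filters, quantile and median scaling, trended and robust variance, array weights, a replicate block, 3 covariates (GAPDH ratio, acinar index, immune index), averaging the probesets of a gene, and omitting single arrays.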

Additional observations from a re-analysis of the deposited data

Results flagged for a closer look

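Of 82 sets of 5 arrays examined (member probesets, the named genes of the lists, marker indices and control ratios, in each diet), 8 contained an array that stood off by Dixon's criterion (its gap to the nearest of the other 4, over the range, above 0.71), and chance marks about 1 in 20 sets, or 4.1 here. All values are log2. For Mdh1 1367653_a_at, standard replicate 5 was highest at 14.14 (others 13.87 to 13.94), the one standard array that overlapped the cafeteria arrays. For Got1, cafeteria replicate 1 was highest at 10.41 (others 9.98 to 10.09). Among the other genes, G6pc3 was highest in standard replicate 5 at 10.34 (others 10.12 to 10.18), and Slc25a13 in standard replicate 4 at 8.74 (others 8.16 to 8.28). The pyruvate carrier gene Mpc1 held 2 such arrays, with standard replicate 4 highest at 11.56 (others 11.44 to 11.46) and cafeteria replicate 4 lowest at 11.18 (others 11.36 to 11.40). The immune index was highest in cafeteria replicate 3 at 9.51 (others 7.62 to 8.12), the array with the lowest Gpd2 1387670_at value, and the endothelial index in standard replicate 5 at 10.68 (others 10.27 to 10.34), the array with the highest Gpd2 1369666_at value. With the immune index as a covariate, the diet difference of Gpd2 1387670_at was −0.37, against −0.14 in the main fit. That of Gpd2 1369666_at was −0.059, against −0.095. The endothelial index was not used as a covariate. Whether these indices and the Gpd2 values are linked was not tested.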

How the results depend on the processing

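Across 22 alternatives, 10 of them omitting an array, the member probesets gave 205 values of unchanged direction and call and 14 that turned; no member passed in any of them. Outside the arrays left out, Slc2a2 turned to −0.051 with quantile normalization, Pc to 0.039 with array weights, and Glud1 1387878_at to −0.15 with the GAPDH ratio as a covariate, −0.048 with the immune index and −0.023 with median centring. Under median centring the median of all probesets tested was −0.032, against 0.006 in the main fit. As single arrays were left out, Pc ran from −0.11 to 0.07, Glud1 1387878_at from −0.027 to 0.057 and Gpd2 1387670_at from −0.30 to 0.028. The count of probesets past limma's threshold, 0 in all, rose to 1 (Amy2a3) when the acinar index was a covariate and to 1 (Emp1) without standard replicate 2.

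Deviations of same-numbered arrays correlated between −0.002 and 0.296, above 0.1 for 3 of the 5 numbers, and 5 of the 10 arrays correlated best, in the other diet, with the array of their own number; since the labels state no shared source and not every pair passed 0.1, the numbers were not taken as pairs. With the replicate block, 0 probesets passed, 12.6% against 10.4% had an unadjusted p under 0.05, and Mdh1 stood at 0.29 by both probesets (limma adjusted p = 0.33 and 0.44). The GAPDH ratio difference of −0.205 ran from −0.26 to −0.17, and its exact permutation p rose to 0.0635 without standard replicate 1, 3 or 4 and 0.0556 without 5. Marker index differences that turned as arrays were left out were the acinar (−0.46 to 0.12), alpha, delta and PP cell (−0.023 to 0.15), beta cell (−0.019 to 0.084) and endothelial (−0.12 to 0.036) ones. Dim signals limit Gckr. Those of Slc2a2 and Mdh1 1367653_a_at lie in a bright range where saturation can narrow differences, which was not tested.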
